A study of Bos taurus with 8 samples.

Results

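Proteasome genes were read in granulosa cells, the cells that line the ovarian follicle, from atretic and from plateau dominant follicles of cattle. The genes were chosen by symbol, as all array probes whose platform symbol begins with PSMA to PSMG and a number, and each gene was read by its brightest probe. The pattern matched 47 symbols with 79 probes. PSMC3IP, which matches by name only and encodes a protein of meiotic recombination, was set apart. Of the 46 proteasome genes that remained, with 78 probes, 45 reached a mean log2 intensity of at least 7 and were measured, among 12943 measured genes in all. PSMA8, a testis form of an alpha subunit, lay just under that limit at 6.90 and was not tested, and the dimmest measured member was PSMB11 at 7.60. PSMD13 and PSME3 had no probe under these symbols and were not analysed here.

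Atretic follicles are those that regress, and plateau follicles are dominant follicles that grow little and show limited atresia. Both came from Holstein ovaries collected at a slaughterhouse, were larger than 9 mm, and were assigned to a phase from flow cytometry of cellular DNA. The mural granulosa layer was scraped from single follicles and its RNA was amplified before labelling with Cy5 or Cy3. Each of 8 two-colour arrays carried RNA of 1 atretic and 1 plateau follicle. Atretic RNA was in Cy5 on 4 arrays and in Cy3 on the other 4, which gave 4 pairs of follicles each measured on 2 arrays. The follicles of a pair share their arrays, and the labels give no other link between them. Nothing in the labels ties the follicles to separate cows, so p-values measure only the spread between these samples. Scraped cells are a mixture, and a smaller share of a cell type cannot be told apart from less RNA per cell.

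The proteasome is the large protease that degrades proteins tagged with ubiquitin. Its 20S core is a barrel of outer alpha rings, which gate the entrance, and inner beta rings, which hold the cutting sites. A 19S regulatory particle docks on the barrel, binds and removes the ubiquitin chain, and unfolds the protein with a ring of ATPases. Under interferon, cells can exchange the cutting subunits for inducible ones, forming the immunoproteasome that prepares peptides for antigen presentation.

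Levels below are normalized log2 intensities, and changes are given as log2(atretic/plateau), with the SD taken across 4 pairs. Levels of different genes cannot be compared, because each probe binds with its own strength. The words rose and fell are used of genes that passed the threshold named in the study, a fold of 1.5 in either direction with an unadjusted p under 0.05, here by limma. This threshold does not control the false discovery rate. Over 33523 probes tested, 0 passed a Benjamini-Hochberg adjusted p of 0.05, 2524 had an unadjusted p under 0.05 and 1393 passed the threshold of the study. Median spot intensities were 162 to 283 in Cy5 and 205 to 374 in Cy3, over local backgrounds of 39 to 71 and 21 to 31, and the number of arrays limits the precision. Of the 45 members, 43 were above the negative controls on every array in both channels. PSMB8 was above them in 4 of 8 plateau measurements and PSMD3 in 6 of 8 atretic ones, and 0 proteasome probes were saturated.

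Few proteasome genes differed between atretic and plateau follicles by the threshold of the study. Of 45 members, 1 rose, 3 fell and 41 did not pass the threshold. Over all measured genes 2.84% rose and 2.91% fell, against 2.2% and 6.7% of members. Counts this small cannot be set apart from the background. Without pair 2, 1 member fell, and without pair 3, 2 rose and 2 fell. PSMG4, an assembly factor, rose. PSMA2 and PSMA4, subunits of the alpha ring, and PSMD10, an assembly factor of the 19S particle, fell. The lowest adjusted p among members was 0.226 by limma. The median log2 ratio was -0.05 over all 45 members, with 28 below 0 (62.2%), against a median of 0.002 over all genes, of which 49.6% were below 0. Most members are bright, and over the 3638 genes whose mean log2 intensity reached 10 the median was 0.09, with 40.8% below 0. Of these bright genes, 6.51% rose and 5.50% fell.

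**Figure D1:**
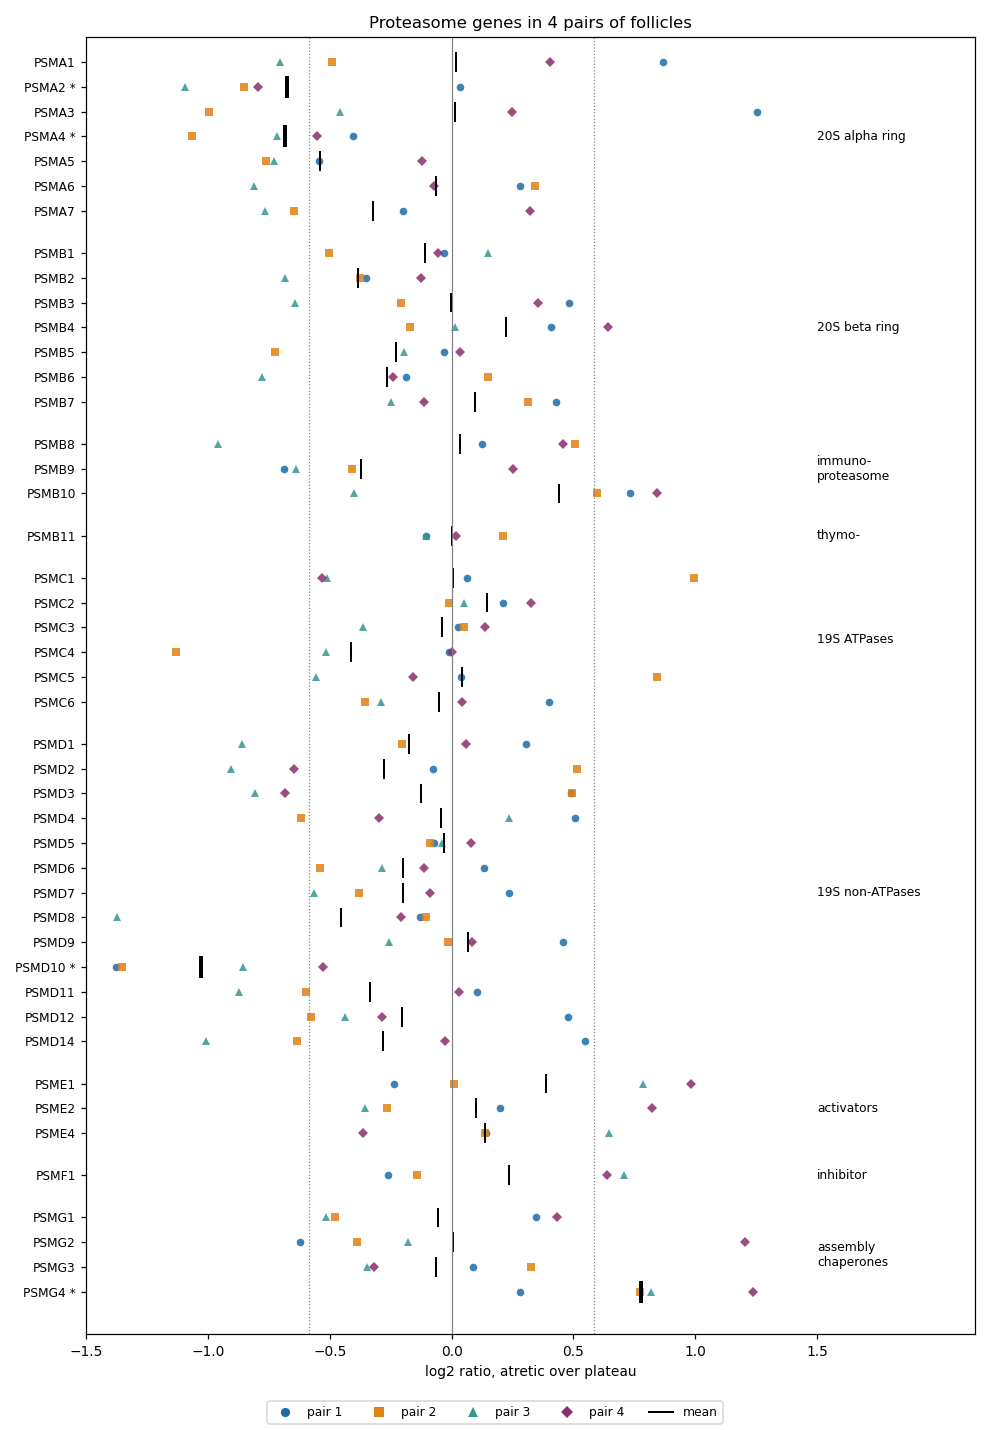
Log2 ratios of atretic over plateau follicles (x axis) of the 45 measured proteasome genes, grouped by role, with 1 symbol for each of 4 pairs and a black bar for the mean. Asterisks mark the 4 genes past the threshold, dotted lines are a fold of 1.5, and most genes have pairs on both sides of 0.

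The SD over pairs was 0.48 at the median of the members and ran from 0.08 for PSMD5 to 0.97 for PSMA3. The 95% interval of a member's log2 ratio reached 0.52 to either side of the mean at the median, and 0.26 to 0.95 over all members. A change smaller than the fold of 1.5 would thus often be within the error of 4 pairs. The sign was the same in all 4 pairs for 6 members, 5 of them lower and 1 higher in atretic follicles. Signs drawn at random would agree in all 4 pairs with a probability of 0.125, which is near this share of the 45 members. The share over all genes was not computed, so an equal sign in 4 pairs does not set a member apart. On single arrays, 2 of the 45 members (PSMA4 and PSMD10) were below 0 on all 8, as were 3.03% of all genes. PSMG4 alone among members was above 0 on all 8 arrays, as were 3.11% of all genes. Levels of the 4 atretic and 4 plateau follicles did not overlap for PSMA4 and PSMD10, against 2.77% of all genes.

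In the alpha ring, 2 of 7 measured subunits fell and the median log2 ratio was -0.32. PSMA4, one of these gate-forming subunits, read 11.37, 10.51, 10.88 and 11.00 in atretic follicles of pairs 1 to 4, against 11.77, 11.58, 11.59 and 11.56 in plateau follicles. The plateau follicles lay close together, and each of them was above the highest atretic follicle. The log2 ratio was -0.68 ± 0.28 (SD, n = 4; adjusted p = 0.319 by limma), a level of 62.2% of that in plateau follicles. Without pair 2 it was -0.56, under the fold of 1.5.

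PSMA2, an alpha subunit whose gene was on 6 tested probes, read 13.70, 11.92, 12.64 and 13.36 in atretic follicles, against 13.66, 12.77, 13.74 and 14.16 in plateau follicles. The groups overlapped, and the follicles of pair 1 were nearly level. The log2 ratio was -0.68 ± 0.49 (SD, n = 4; adjusted p = 0.556 by limma). The other 5 probes of PSMA2 read between -0.24 and 0.38, and 0 of them passed the threshold. The mean of the 6 probes was -0.16. Leaving out pair 2, 3 or 4 also took PSMA2 out of the threshold, at -0.62, -0.54 and -0.64.

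PSMA5, named because it lay just outside the threshold after its values were seen, encodes another alpha subunit and was lower in the atretic follicle of all 4 pairs. Its levels were 12.09, 10.64, 11.66 and 11.83 in atretic follicles, against 12.63, 11.40, 12.39 and 11.95 in plateau follicles. The groups overlapped, since the pairs themselves lay at different levels. The log2 ratio was -0.54 ± 0.29, past an unadjusted p of 0.05 but under the fold (SD, n = 4; adjusted p = 0.498 by limma). Without pair 4 it was -0.68, past the threshold. The other 4 alpha subunits, PSMA1, PSMA3, PSMA6 and PSMA7, lay between -0.32 and 0.02.

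In the beta ring, 0 of 7 subunits rose or fell, and the median was -0.11. PSMB2, a subunit without a cutting site, had the smallest p of the ring. It read 12.97, 11.96, 12.21 and 12.58 in atretic follicles and 13.33, 12.33, 12.90 and 12.70 in plateau follicles, lower in the atretic follicle of every pair although the groups overlapped. The log2 ratio was -0.39 ± 0.23, past an unadjusted p of 0.05 but under the fold (SD, n = 4; adjusted p = 0.604 by limma). On the slide with atretic RNA in Cy5 it was -0.76 and on the slide with atretic RNA in Cy3 -0.01, and slide and dye orientation cannot be told apart.

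The 3 cutting subunits of the constitutive core did not differ by more than the spread over pairs. PSMB6, which carries the caspase-like site, read 14.66, 14.05, 13.84 and 14.66 in atretic follicles and 14.85, 13.90, 14.61 and 14.90 in plateau follicles (log2 ratio -0.26 ± 0.38, SD, n = 4; adjusted p = 0.803 by limma). PSMB7, with the trypsin-like site, read 13.07, 12.25, 12.62 and 12.70 in atretic follicles and 12.64, 11.94, 12.87 and 12.82 in plateau follicles (0.10 ± 0.33; adjusted p = 0.931 by limma, n = 4). PSMB5, with the chymotrypsin-like site, read 11.98, 10.65, 11.78 and 12.35 in atretic follicles and 12.01, 11.38, 11.98 and 12.31 in plateau follicles (-0.23 ± 0.35; adjusted p = 0.821 by limma, n = 4). Both follicles of pair 2 were low for PSMB5 and PSMB7, but they were on the same arrays, where a follicle and its hybridisation cannot be told apart. The 95% intervals ran from -0.71 to 0.18 for PSMB6, from -0.30 to 0.50 for PSMB7 and from -0.64 to 0.19 for PSMB5, so a loss of up to a fold of 1.5 remains within the interval of PSMB5 and PSMB6.

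The inducible counterparts of these subunits were also without a rise or fall, and they did not move together. PSMB9, which replaces PSMB6, read 8.99, 8.10, 8.01 and 8.88 in atretic follicles, against 9.68, 8.51, 8.65 and 8.63 in plateau follicles. It was lower in the atretic follicle of 3 pairs, at -0.37 ± 0.43 (SD, n = 4; adjusted p = 0.741 by limma). PSMB10, which replaces PSMB7, read 11.55, 12.60, 11.45 and 11.09 in atretic follicles, against 10.81, 12.00, 11.86 and 10.25 in plateau follicles. It was higher in the atretic follicle of 3 pairs and lower in pair 3, at 0.44 ± 0.57 (adjusted p = 0.751 by limma, n = 4), and without pair 3 it was at 0.72, past the threshold. The other probe of PSMB10 was at 0.24 ± 0.56 over the 4 pairs. PSMB8, which replaces PSMB5, read 7.34, 9.93, 7.64 and 7.48 in atretic follicles, against 7.22, 9.42, 8.60 and 7.02 in plateau follicles. Both follicles of pair 2 stood above all others, several of the rest were close to the negative controls, and the log2 ratio was 0.03 ± 0.68 (adjusted p = 0.989 by limma, n = 4). PSMB11, the cutting subunit of the thymus, stayed near the negative controls at 7.45 to 7.77 in atretic and 7.56 to 7.64 in plateau follicles.

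An exchange of constitutive for inducible subunits would show as a difference between the log2 ratios of the partners. The inducible minus the constitutive log2 ratio was -0.11 ± 0.51 for PSMB9 and PSMB6, 0.35 ± 0.46 for PSMB10 and PSMB7, and 0.26 ± 0.82 for PSMB8 and PSMB5 (SD, n = 4 pairs). It was above 0 in 2, 3 and 3 of the 4 pairs. These differences rest on the brightest probes. Other probes read -0.04 for PSMB6, -0.11 and -0.06 for PSMB7 and 0.24 for PSMB10. PSMB8 was above the negative controls in 4 of 8 plateau measurements only. With 4 pairs the smallest p of an exact two-sided sign-flip test is 0.125, so no such test was made.

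**Figure D2:**
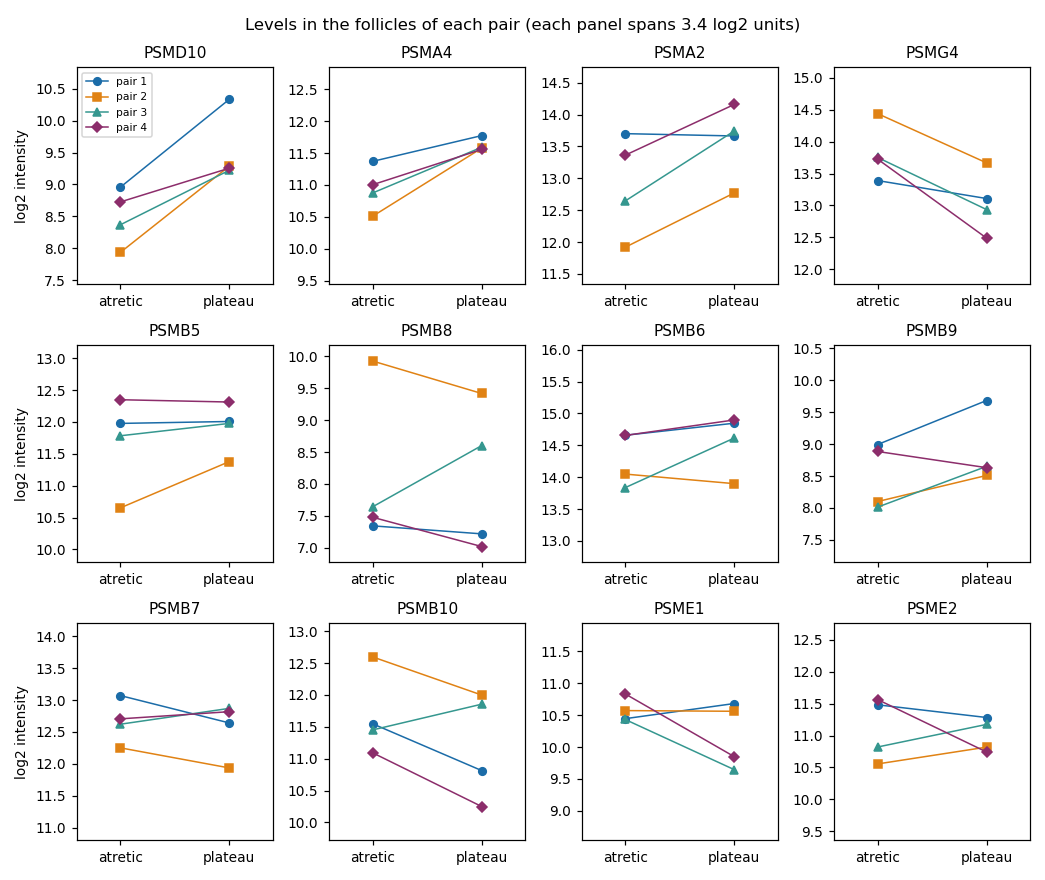
Normalized log2 intensity (y axis) in the atretic and plateau follicle of each pair, joined by a line, for the 4 genes past the threshold (top row), the constitutive and inducible cutting subunits, and the activators PSME1 and PSME2. PSMD10 and PSMA4 slope the same way in all pairs without overlap, while PSMB8 differs more between pairs than between phases.

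Of the 19S regulatory particle, 1 of 19 measured genes fell, and the median log2 ratio was -0.18 with 15 of 19 below 0. PSMD10, known as gankyrin, helps to assemble the base of the particle and leaves it when the particle is complete. It is also known to bind the retinoblastoma protein and the ubiquitin ligase MDM2. PSMD10 read 8.96, 7.93, 8.37 and 8.72 in atretic follicles of pairs 1 to 4, against 10.33, 9.29, 9.22 and 9.25 in plateau follicles. Every plateau follicle was above every atretic one, and the plateau follicle of pair 1 stood highest. The log2 ratio was -1.03 ± 0.41 (SD, n = 4; adjusted p = 0.226 by limma), a level of 49.0% of that in plateau follicles, measured by 1 probe. It passed the threshold in each of the 20 alternatives in which it was tested, between -1.20 and -0.89. Several of these could change only its p, since the log2 ratio stayed at -1.03. Among them were the filters, the fits of 8 arrays, the variance model and, with 1 probe, the mean of all probes.

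Without PSMD10 and the other assembly factors of the base, PSMD5 and PSMD9, 0 of the remaining 16 genes of the 19S particle rose or fell, 13 were below 0 and the median was -0.19. This grouping was made after the values were seen. PSMD5 had the smallest SD over pairs of all members, at -0.03 ± 0.08 (SD, n = 4), though its single arrays ran from -0.43 to 0.26. PSMD9 was at 0.07 ± 0.30.

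The ATPases, PSMC1 to PSMC6, form the ring that unfolds the substrate, and their median was -0.02 with 3 of 6 below 0. PSMC4 had the smallest p and read 11.25, 10.18, 11.05 and 11.31 in atretic follicles, against 11.26, 11.31, 11.56 and 11.31 in plateau follicles. The atretic follicle of pair 2 was low, while in pairs 1 and 4 both follicles were level, and the log2 ratio was -0.41 ± 0.54 (SD, n = 4; adjusted p = 0.752 by limma). PSMC2 had the next largest mean, at 0.14 ± 0.15 (adjusted p = 0.838 by limma, n = 4), from 11.63, 10.57, 11.11 and 12.08 in atretic and 11.42, 10.58, 11.06 and 11.75 in plateau follicles. The levels of PSMC2 ranked the pairs in the same order in both phases, and within a pair the phases were at most 0.33 apart.

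Among the other 19S subunits, PSMD8, part of the lid that holds the ubiquitin-removing enzyme, had the largest mean after PSMD10. It read 12.51, 11.61, 11.48 and 11.96 in atretic follicles, against 12.64, 11.72, 12.86 and 12.16 in plateau follicles. Its log2 ratio of -0.46 ± 0.61 (SD, n = 4; adjusted p = 0.762 by limma) came mainly from pair 3, at -1.38, with the other pairs at -0.21 to -0.11. PSMD14, the ubiquitin-removing enzyme of the lid, read 12.90, 11.13, 12.08 and 12.62 in atretic follicles and 12.35, 11.77, 13.09 and 12.65 in plateau follicles, at -0.28 ± 0.69 (adjusted p = 0.871 by limma, n = 4). It was higher in the atretic follicle of pair 1 and lower in pairs 2 and 3.

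The ubiquitin receptors showed no rise or fall. PSMD4 read 12.45, 11.93, 11.20 and 11.97 in atretic follicles and 11.94, 12.55, 10.97 and 12.27 in plateau follicles, at -0.04 ± 0.51 (adjusted p = 0.98 by limma, n = 4), with 2 pairs in each direction. ADRM1, a receptor outside the symbol pattern, read 13.35, 13.85, 12.87 and 13.74 in atretic follicles and 12.92, 13.22, 13.35 and 13.74 in plateau follicles, at 0.14 ± 0.49 (adjusted p = 0.919 by limma, n = 4). The scaffold PSMD2 was at -0.28 ± 0.63 by its brightest probe, and another of its 3 probes was at -0.59 ± 0.45 (adjusted p = 0.599 by limma, n = 4), past the threshold. The other 19S subunits, PSMD1, PSMD3, PSMD6, PSMD7, PSMD11 and PSMD12, lay between -0.33 and -0.13, and all of their groups overlapped.

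The activators that open the barrel in place of the 19S particle were without a rise or fall. PSME1, the alpha subunit of the interferon-inducible PA28 ring, read 10.45, 10.57, 10.43 and 10.83 in atretic follicles, against 10.68, 10.56, 9.65 and 9.85 in plateau follicles. Its log2 ratio was 0.39 ± 0.59 (SD, n = 4; adjusted p = 0.791 by limma), and the plateau follicles of pairs 3 and 4 were the low ones. PSME2, the beta subunit of the same ring, read 11.48, 10.56, 10.82 and 11.57 in atretic and 11.28, 10.82, 11.18 and 10.74 in plateau follicles, at 0.10 ± 0.54 (adjusted p = 0.95 by limma, n = 4). The log2 ratios of the 2 partners had the same sign in pair 4 only. In pairs 1 to 3 they were -0.24, 0.01 and 0.79 for PSME1, against 0.20, -0.26 and -0.35 for PSME2. PSME4, or PA200, an activator known from mouse sperm formation, read 12.58, 13.02, 13.23 and 12.62 in atretic and 12.44, 12.88, 12.58 and 12.99 in plateau follicles, at 0.14 ± 0.41 (adjusted p = 0.912 by limma, n = 4). The other probes of PSME4 were at -0.25 and -0.05. PSMF1, known as an inhibitor of the core, read 7.90, 8.60, 8.92 and 8.71 in atretic and 8.17, 8.74, 8.21 and 8.07 in plateau follicles, at 0.24 ± 0.51 (adjusted p = 0.862 by limma, n = 4). The atretic follicle was the higher one for PSMF1 in pairs 3 and 4 only.

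Of the 4 chaperones that assemble the alpha ring, 1 rose. PSMG4 works as a pair with PSMG3 and read 13.39, 14.44, 13.75 and 13.73 in atretic follicles, against 13.11, 13.67, 12.94 and 12.49 in plateau follicles. The atretic follicle was higher in each pair, although the groups overlapped because both follicles of pair 2 were high. The log2 ratio was 0.78 ± 0.39 (SD, n = 4; adjusted p = 0.367 by limma), a fold of 1.71. Its other probe rose as well, at 0.61 ± 0.23 (adjusted p = 0.325 by limma, n = 4), but unevenly over the slides. That probe was at 0.10 with atretic RNA in Cy5 and at 1.12 with atretic RNA in Cy3, against 0.80 and 0.75 for the brightest probe. PSMG3 read 9.76, 9.69, 9.66 and 9.16 in atretic and 9.67, 9.36, 10.01 and 9.48 in plateau follicles, at -0.06 ± 0.33 (adjusted p = 0.958 by limma, n = 4), in contrast to its partner, though the difference between them was not tested. PSMG1 and PSMG2, the other pair of chaperones, were at -0.05 ± 0.51 and 0.004 ± 0.82, and PSMG2 read 1.21 in pair 4 against -0.62 to -0.18 in the other pairs.

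With the 8 arrays fitted singly and the pair as a replicate block, PSMD10, PSMA4 and PSMG4 passed an adjusted p of 0.05 by limma (0.0104, 0.0446 and 0.0461) and PSMA2 did not (0.123). That fit lets both arrays of the same 2 RNA extracts add to the evidence. With a dye term added, PSMD10 was at an adjusted p of 0.019 by limma, PSMA4 at 0.0856 and PSMG4 at 0.0943.

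Probes of 1 gene often disagreed in sign where the change was small. Of 19 members with more than 1 probe tested, 9 had probes of 1 sign only and 10 had probes on both sides of 0, and the other 26 members were read by 1 probe. PSMG4 was the only member with 2 probes past the threshold, though its dimmer probe read 0.10 on 1 slide. Where probes disagree, the files do not say which transcript form or copy of a gene each probe binds.

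**Figure D3:**
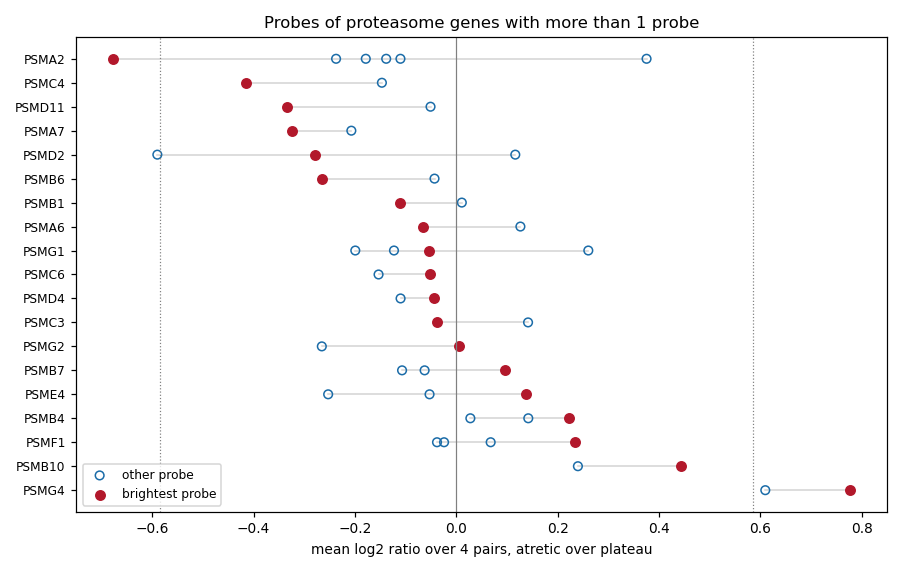
Mean log2 ratio of atretic over plateau over 4 pairs (x axis) for each tested probe of the 19 proteasome genes with more than 1 probe, with the brightest probe filled and the others open. Both probes of PSMG4 lie to the right of the dotted line at a fold of 1.5, while PSMA2 has 1 of 6 probes to the left of it.

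Pair 3 stood apart from the other pairs over the members as a whole, though not for the alpha ring. In pair 3, 37 of 45 members were lower in the atretic follicle (82.2%), against 50.2% of all genes, with a median of -0.51. The medians of pairs 1, 2 and 4 were 0.10, -0.21 and 0.02, while those of all genes lay between -0.004 and 0.02 in the 4 pairs. Pair 3 held the lowest of the 4 values for 23 members (51.1%), as it did for 29.0% of all genes. All 7 alpha subunits, 12 of 13 non-ATPase genes and all 3 immunoproteasome subunits were below 0 in that pair, with medians of -0.73, -0.81 and -0.64. In pair 2, 6 of 7 alpha subunits and 11 of 13 non-ATPase genes were below 0, with medians of -0.76 and -0.38. Of the immunoproteasome subunits, 1 of 3 was below 0 in pair 2, with a median of 0.51. By their brightest probes the activators ran the other way in pair 3, with a median of 0.65 and only PSME2 below 0, as did the inhibitor PSMF1 at 0.71. That median is the value of PSME4, whose other probes read -0.94 and -0.19 in pair 3, so the direction of the activators depends on the probe. Without pair 3, the median of the 19S genes was -0.04 and that of the 20S core -0.13. Without pair 2, these medians were -0.16 and -0.13.

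**Figure D4:**
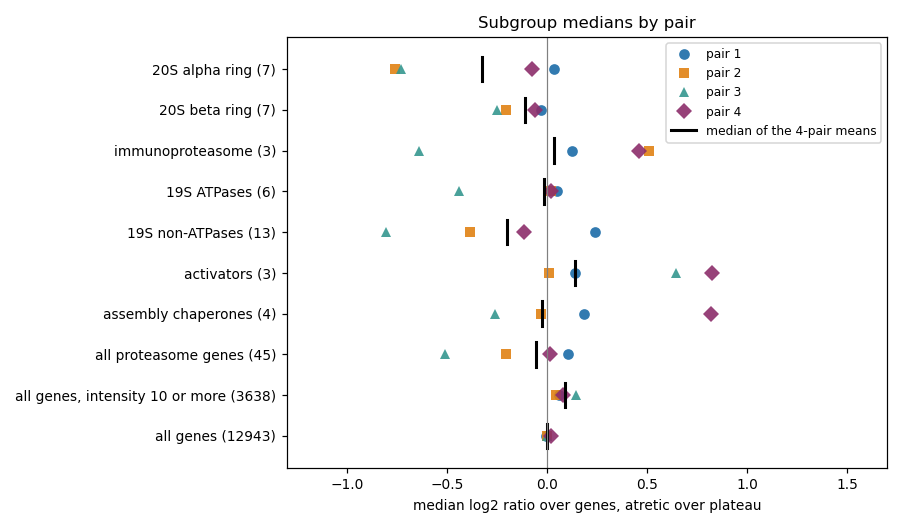
Median log2 ratio over the genes of each subgroup (x axis) in each of 4 pairs, with a black bar for the median of the 4-pair means and the number of genes in brackets. Of the subgroups drawn, pair 3 lies right of 0 for the activators and left of 0 for the others (PSMF1 and PSMB11, single genes, are not drawn), and the medians of all 12943 genes lie between -0.004 and 0.02.

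Markers of cell type also stood apart in pair 3. There the 8 stroma markers had a median log2 ratio of -4.95, the 12 leukocyte markers -0.73 and the 10 granulosa markers 2.71, against -0.72 to 0.61, -0.56 to 0.17 and -0.44 to 0.99 in the other pairs. The mean log2 level of the stroma markers was 8.52 to 9.17 in atretic and 7.91 to 13.49 in plateau follicles, with the highest in the plateau follicle of pair 3. That of the granulosa markers was 11.12 to 12.30 in atretic and 9.28 to 12.62 in plateau follicles, lowest in that same follicle. The leukocyte markers averaged 7.53 to 8.25 in atretic and 7.26 to 9.19 in plateau follicles, again highest in the plateau follicle of pair 3. Above the negative controls on all arrays were 4 of 12 leukocyte, 6 of 8 stroma, 5 of 10 granulosa and 1 of 4 theca markers. These averages thus include values at the level of the controls. The 4 theca markers stood apart in pairs 1 and 4 instead. All 4 were higher in the atretic follicle of pair 1, with a median log2 ratio of 1.56, and all 4 lower in that of pair 4, with a median of -0.91, against medians of 0.18 and 0.03 in pairs 2 and 3. Their mean level was 7.55 to 11.41 in atretic follicles, highest in that of pair 1, and 7.36 to 10.85 in plateau follicles, highest in that of pair 4. CYP17A1, the androgen-forming enzyme of theca cells, read 9.41, 7.01, 7.29 and 7.52 in atretic follicles of pairs 1 to 4, against 7.64, 7.06, 8.15 and 8.40 in plateau follicles. It was thus highest in the atretic follicle of pair 1, although LHCGR and HSD3B1 of this list are also made by granulosa cells. The paper found high CYP17A1 in an atretic sample by PCR, read it as likely theca contamination and left that sample out. The labels do not say which array, if any, holds it. Without pair 1, PSMA2, PSMA4, PSMD10 and PSMG4 each kept the call, and the medians of the 20S core and the 19S genes were -0.29 and -0.33. Without pair 4, 1 member rose and 3 fell, with PSMA5 in place of PSMA2. The part of other cells in the proteasome values was not tested, and 0 of these markers rose or fell.

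Across the 8 follicles, many subunits were low in the same follicles. In the atretic follicle of pair 2, all 14 core subunits were below their own mean of 8 follicles, by 0.72 at the median, and it was the lowest of the 8 follicles for 8 of them (57.1%), as it was for 15.4% of all genes. For the 19S genes that follicle was lowest for 10 of 19 (52.6%), with 15 of 19 below their own mean. The plateau follicle of pair 2, on the same arrays, was also low, by 0.39 for the core and 0.30 for the 19S genes at the median. The follicles of pair 1 were high for the core, by 0.40 in the atretic and 0.36 in the plateau follicle. All of these shared levels are between arrays, where a follicle and its hybridisation cannot be told apart, and over all genes the 8 medians lay between -0.02 and 0.01.

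**Figure D5:**
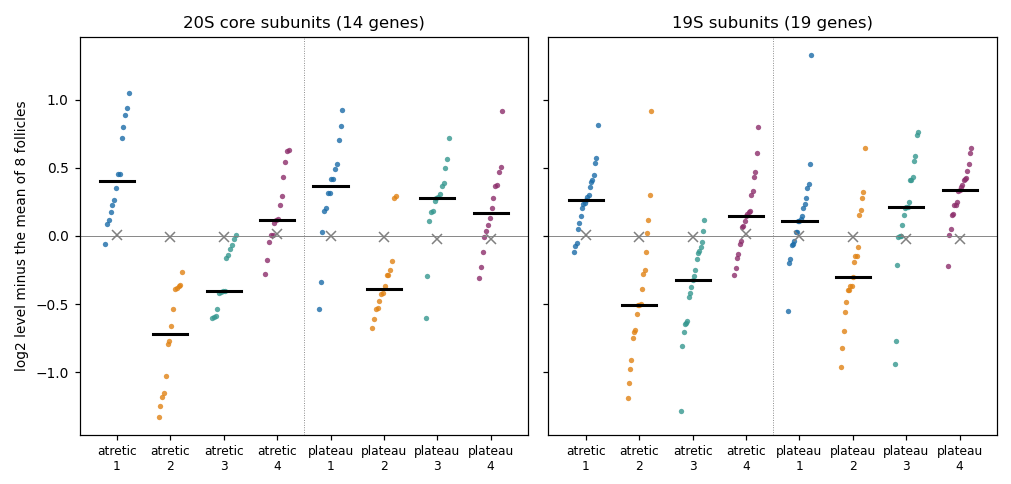
Log2 level of each 20S core (left) and 19S (right) gene minus its own mean over 8 follicles (y axis), by follicle, with black bars at the median over the genes shown and grey crosses at the median of all genes. Both follicles of pair 2 and the atretic follicle of pair 3 have medians below 0 in both panels, and all 14 core genes lie below 0 in the atretic follicle of pair 2.

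The spread among atretic follicles was larger than that among plateau follicles for 29 of 45 members (64.4%), against 39.7% of all genes. The SD of the level had a median over members of 0.50 among atretic and 0.44 among plateau follicles, and over all genes of 0.29 and 0.35.

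Other genes of the ubiquitin and proteasome pathway, from a list of 33 of which 25 were measured, gave 0 that rose and 0 that fell, with a median of -0.02 and 13 below 0. AKIRIN2, which guides proteasomes into the nucleus, was higher in the atretic follicle of all 4 pairs at 0.49 ± 0.36 (SD, n = 4; adjusted p = 0.601 by limma), under the fold of 1.5. VCP, the ATPase that extracts tagged proteins from complexes, was at -0.74 ± 0.93 (adjusted p = 0.725 by limma, n = 4), and the ubiquitin-binding autophagy receptor SQSTM1 at -0.61 ± 0.84 (adjusted p = 0.752 by limma, n = 4). Both were lowest in pair 3, at -1.88 and -1.70. POMP, the maturation factor that completes the core, was at -0.03 ± 0.75. NFE2L1, the transcription factor that renews proteasome genes when the protease is inhibited, was at 0.26 ± 0.53.

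Of 24 genes of the interferon response and antigen presentation, 19 were measured, 0 rose and 0 fell, with a median of -0.01. The transporter TAP1, which carries proteasome products into the endoplasmic reticulum, was at -0.26 ± 0.31, and IRF1, a transcription factor of the immunoproteasome genes, at 0.33 ± 0.25 (adjusted p = 0.68 by limma, n = 4). PDIA3, a disulphide isomerase of the peptide loading complex, was lower in the atretic follicle of all 4 pairs at -0.57 ± 0.27 (adjusted p = 0.427 by limma, n = 4), just under the fold of 1.5. PSMC3IP, the recombination gene that shares the symbol pattern, fell by 0.63 ± 0.48 on the log2 scale (adjusted p = 0.596 by limma, n = 4), with pair 2 at 0.09.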

How the data were processed

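Granulosa RNA of 4 atretic and 4 plateau follicles was hybridised in pairs to 8 two-colour EmbryoGENE arrays on 2 slides. The authors deposited a median intensity and local background of each spot and channel, and normalized log2 ratios (Cy5 to Cy3) after background subtraction, loess and quantile normalization. Recomputed Cy5 over Cy3 correlated with that table at 0.99969 to 0.99993, which settled its direction, and its column medians were -0.0289 to -0.00543. It served as an alternative.

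The intensities were corrected by normexp (offset 50), followed by within-array loess (span 0.3) and between-array quantile normalization in limma 3.58.1 (R 4.3.3), and turned to atretic minus plateau. Arrays of equal Area number correlated between slides at 0.761 to 0.866, and others at -0.488 to -0.0326, so equal numbers were taken as dye swaps of the same extracts and averaged. The 4 averages were tested with lmFit and eBayes over 33523 probes whose mean log2 intensity was at least 7, adjusted by Benjamini and Hochberg. Symbols came from the platform annotation, updated with gene records. Of 43794 gene probes, 21790 had 1 symbol, 0 several and 22004 none. A gene counted as above the negative controls where it passed their 95th percentile on that array and channel.

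Named were the members past the threshold of the study, in each subgroup the smallest p and the 2 largest means, the cutting subunits, PSME1, PSME2, PSMD4, ADRM1 and PSMD14. Members and lists were chosen with earlier results of these data known. The limma fit was tested on simulated pair values with the spread seen here. Alternatives changed background, normalization, filters, dye swap treatment, slide, source, variance model, probe and pairs. Figures were drawn with matplotlib 3.10.9 in Python 3.11.15.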

Additional observations from a re-analysis of the deposited data

Results flagged for a closer look

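Among 135 sets of 4 values (the log2 ratios, the atretic levels and the plateau levels of 45 members), 9 had 1 value far from the other 3 by Dixon's test, and chance alone gives about 1 in 20. The log2 ratio of PSMD8 was -1.38 in pair 3, with -0.21 to -0.11 in the other pairs. Among atretic follicles, PSMB8 stood at 9.93 in pair 2, with 7.34 to 7.64 in the others, and PSMG3 at 9.16 in pair 4, with 9.66 to 9.76 in the others. Among plateau follicles of pair 1, PSMD10 stood at 10.33, with 9.22 to 9.29 in the others, PSMB9 at 9.68, with 8.51 to 8.65, PSMB1 at 12.43, with 11.22 to 11.39, and PSMA4 at 11.77, with 11.56 to 11.59. PSMA7 stood at 12.10 in the plateau follicle of pair 4, with 12.70 to 12.78 in the others, and PSMC4 at 11.56 in that of pair 3, with 11.26 to 11.31.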

How the results depend on the processing

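Of the 4 members past the threshold of the study, PSMD10 and PSMG4 kept the call under all 20 alternatives, PSMA4 lost it without pair 2 and PSMA2 lost it with all probes averaged or without pair 2, 3 or 4. The count of members that rose was 2 on slide 205 (atretic RNA in Cy5) alone, and 1 to 2 with 1 pair left out. The count that fell was 1 to 3 with 1 pair left out, and 5 at an unadjusted p with no fold. PSME1 (0.64) and PSMB2 (-0.76) passed on slide 205 alone, and PSMA5 on slide 206 (atretic RNA in Cy3) alone (-0.68) and with no normalization between arrays (-0.59). Medians ran from -0.29 to -0.13 for the 20S core, -0.33 to -0.04 for 19S genes and -0.12 to 0.36 for the immunoproteasome with 1 pair left out, so the sign of the last is not settled. Probes past an adjusted p of 0.05 numbered 549 with the pair as a replicate block, 436 with a dye term added and 964 with arrays taken as independent. Probes past the threshold of the study numbered 2216, 2200 and 2225 in these 3 fits, 2712 on slide 205 alone, 2665 on slide 206 alone, 2524 with no fold and 1287 to 1811 with 1 pair left out. With no normalization between arrays, 565 were higher and 735 lower, against 721 and 672. The cause of these differences was not tested.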
